A study of Homo sapiens with 12 samples.

Results

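Mitochondrial aminoacyl-tRNA synthetases were represented by 5 genes in a pairwise CRISPR interference screen: AARS2, CARS2, IARS2, LARS2 and PARS2. They were found as every gene of the library whose symbol ends in ARS2. Each was targeted by 2 sgRNAs, giving 10 of the 1141 sgRNAs of the library. Constructs with at least 1 of these sgRNAs, in either position, numbered 22720 of 1301881. Of these, 1100 paired a synthetase sgRNA with 1 of 55 non-targeting sgRNAs, 80 paired sgRNAs of different synthetases, some carried 2 sgRNAs of the same synthetase, and the others paired a synthetase with another of the 543 genes of the library.

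The screen was run in K562, an established human leukaemia cell line, here carrying the CRISPR interference machinery, in which an sgRNA directs a repressor to the start of a gene. The labels name no other cell line, so the groups share 1 genetic background. Each of 4 cultures, 2 in a screen labelled 2022 and 2 in a screen labelled 2023, was sampled at T0 on day 9 after transduction and then divided. The reference arm received the vehicle DMSO, and the niraparib arm received an inhibitor of poly(ADP-ribose) polymerase. In 2022 the drug was given at 2 µM for 3 days and cells were collected on day 18. In 2023 the dose was 2 µM, rising to 3 µM from day 2, for 4 days in all, and cells were collected on day 19. The 6 groups (T0, reference and niraparib in each screen) therefore held 2 libraries each, 12 in all. Library totals ran from 183 to 461 megareads, and the constructs of the 5 genes had a median of 59 to 253 reads per library. The labels name no molecular identifiers for these PCR products, so the values count reads and not molecules, and each culture gave 1 library per arm.

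Each aminoacyl-tRNA synthetase joins an amino acid to its tRNA. The enzymes whose symbols end in 2 serve the ribosomes inside mitochondria, which make core subunits of the respiratory chain and of ATP synthase from the mitochondrial genome. AARS2 charges alanine, CARS2 cysteine, IARS2 isoleucine, LARS2 leucine and PARS2 proline. All are nuclear genes, each with a separate cytosolic counterpart. Loss of mitochondrial translation is known to lower respiration and to activate the integrated stress response.

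The 2 sgRNAs of each gene lay close together: the sites given in their names were 21 bases apart for AARS2, 7 for CARS2, 26 for IARS2, 38 for LARS2 and 6 for PARS2. The names give no genome build, so the sites were not placed on an annotation. Because the sgRNAs act at gene starts, the 150 bases before the annotated start are shown for the genes matched in RefSeq promoters of GRCh38.p14 (4 of 5 genes, CARS2 with 2 start sites; AARS2 was not matched). Capitals mark the NRF1 motif (GCGC, any 1 base, TGCGC) and the ETS motif CCGGAAG, each searched on both strands, where they fall in the printed stretch.
CARS2 promoter at start site 1, chr13:110706516-110706665, minus strand: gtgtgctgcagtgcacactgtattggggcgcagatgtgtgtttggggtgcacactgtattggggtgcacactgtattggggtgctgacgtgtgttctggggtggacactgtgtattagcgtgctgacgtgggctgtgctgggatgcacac
CARS2 promoter at start site 2, chr13:110706117-110706266, minus strand: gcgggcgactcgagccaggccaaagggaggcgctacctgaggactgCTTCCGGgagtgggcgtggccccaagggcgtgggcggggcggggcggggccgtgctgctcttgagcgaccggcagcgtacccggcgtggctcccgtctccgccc
IARS2 promoter, chr1:220093982-220094131, plus strand: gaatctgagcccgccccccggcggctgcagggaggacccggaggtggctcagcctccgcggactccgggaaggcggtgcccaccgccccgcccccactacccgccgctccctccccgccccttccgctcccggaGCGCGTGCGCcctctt
LARS2 promoter, chr3:45388426-45388575, plus strand: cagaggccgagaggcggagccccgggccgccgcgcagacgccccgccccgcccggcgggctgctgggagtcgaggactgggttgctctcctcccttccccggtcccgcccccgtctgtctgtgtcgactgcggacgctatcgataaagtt
PARS2 promoter, chr1:54764524-54764673, minus strand: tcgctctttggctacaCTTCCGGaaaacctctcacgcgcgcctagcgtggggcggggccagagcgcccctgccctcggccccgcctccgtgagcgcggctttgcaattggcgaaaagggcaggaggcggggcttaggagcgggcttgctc
The searched window ran from 250 bases before the start to 50 after it. The NRF1 motif was found in IARS2, 16 bases before the start, and in PARS2, 3 bases after it. The ETS motif was found in PARS2, 216 and 134 bases before the start, and at the second start site of CARS2, 104 bases before it. Of 35116 promoters of the same length in the table, 5.78% held the NRF1 motif and 10.3% the ETS motif. A match is a string of letters and was not tested as a binding site.

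The first question was how knockdown of each synthetase alone changed growth without drug. Growth was measured as the log2 ratio of the reference arm over T0 for a gene's 220 constructs with a non-targeting partner, set so that constructs with 2 non-targeting sgRNAs lie at 0. Knockdown of all 5 genes lowered growth, with PARS2 lowest and AARS2 and CARS2 least low. Each passed edgeR's quasi-likelihood test with Benjamini-Hochberg adjustment over all genes and controls. So did 81% of the 543 genes in the same direction, and 4.24% passed as higher, so the call itself is not particular to these 5.

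For PARS2, the prolyl-tRNA synthetase, growth was −2.25 and −2.30 in the 2022 cultures and −2.61 and −2.61 in the 2023 cultures. Its mean was −2.44 ± 0.19 (SD, n = 4; adjusted p = 1.9e-10), the 17th lowest of 543 genes. For IARS2, the isoleucyl-tRNA synthetase, the values were −1.55, −1.48, −1.70 and −1.74. The mean of −1.62 ± 0.12 (SD, n = 4; adjusted p = 6.3e-09) ranked 55th from the lowest.

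LARS2, the leucyl-tRNA synthetase, stood at −1.41, −1.43, −1.74 and −1.69, with a mean of −1.57 ± 0.17 (SD, n = 4; adjusted p = 6.2e-10) and rank 66. AARS2 gave −1.14, −1.14, −1.33 and −1.30, a mean of −1.23 ± 0.10 (SD, n = 4; adjusted p = 1.3e-09). CARS2 gave −1.14, −1.17, −1.31 and −1.31, a mean of −1.23 ± 0.09 (SD, n = 4; adjusted p = 1.2e-09). These 2 genes held ranks 108 and 107. No culture of any synthetase reached the range of the controls, whose 55 means lay between −0.06 and 0.08.

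In order from the lowest, PARS2 stood apart from IARS2 by 0.83 ± 0.09 (SD, n = 4) and was lower in 4 of 4 cultures. IARS2 and LARS2 differed by 0.05 ± 0.07 (SD), within their spread, and AARS2 and CARS2 did not separate either (0.00 ± 0.02). LARS2 was lower than AARS2 by 0.34 ± 0.07 (SD) in 4 of 4 cultures. Over the 20 such differences in growth and response, the exact two-sided sign-flip test cannot go below p = 0.125 with 4 cultures (0.156 after Benjamini-Hochberg adjustment), so none can pass 0.05.

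The neighbours in rank included some mitochondrial genes. LARS2 lay within 3 ranks of TUFM, the mitochondrial elongation factor Tu (−1.57 ± 0.07), and NDUFA8, a subunit of respiratory complex I (−1.55 ± 0.04). PARS2 lay among MINOS1, of the inner-membrane organising system (−2.47 ± 0.16), SSBP1, the mitochondrial single-strand DNA binding protein (−2.46 ± 0.06), and PTCD1, a mitochondrial RNA processing factor (−2.29 ± 0.03). It also lay beside HAUS1 (−2.35 ± 0.16), a spindle protein. Among the neighbours in growth, 3 on each side of each gene, DICER1, at −2.24 ± 0.20 (SD, n = 4), lay further from its synthetase (PARS2) than the larger of the 2 SDs, and the others lay within it.

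Growth was lower in the 2023 screen than in 2022 for all 5 genes. The difference was −0.17 for AARS2 (edgeR adjusted p = 0.0079), −0.15 for CARS2 (0.012), −0.20 for IARS2 (0.040), −0.29 for LARS2 (0.0012) and −0.33 for PARS2 (6.1e-04). Over all genes, 30% were lower in 2023 and 1.1% higher. The 2023 reference cultures were collected a day later, on day 19 and not day 18, and the screens also differed in depth; their part in the difference was not tested. Only 2 of the 5 differences passed without 2023 replicate 1, and 2 without 2023 replicate 2.

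The sgRNAs of a gene differed in strength. For AARS2, sgRNA 1 gave a growth of −0.78 ± 0.08 and sgRNA 2 gave −1.94 ± 0.15 (SD, n = 4 cultures). For LARS2 the values were −1.18 ± 0.14 and −2.18 ± 0.25, and for PARS2 −2.20 ± 0.19 and −2.71 ± 0.20. The CARS2 sgRNAs were closest, at −1.32 ± 0.09 and −1.07 ± 0.08. IARS2 had the widest gap, −1.25 ± 0.06 against −3.002 ± 0.35. With sgRNA 2, IARS2 was thus the lowest of the 10, and with sgRNA 1 it was near AARS2 and CARS2. All 10 sgRNAs passed edgeR's test, with adjusted p from 1.9e-10 to 1.2e-08, and the ranges of the 2 sgRNAs overlapped in no gene.

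IARS2 was thinly represented from the start. Its T0 level, the log2 read count per construct relative to constructs of 2 non-targeting sgRNAs, was −2.45 ± 0.08 (SD, n = 4), the 6th lowest of 543 genes. The other 4 genes lay between −0.18 (CARS2) and 0.54 (AARS2). A T0 level mixes the abundance in the plasmid library with growth before day 9, and no earlier library was used here. Only 61.4% of the constructs of IARS2 had a mean T0 count of 30 or more, against 97.7% to 99.6% in the other 4 genes. The single-gene value of IARS2 still rested on 3805 to 11668 reads per library. Because that value sums reads, it leans towards the more abundant sgRNA 1; the unweighted mean over constructs used for pairs was −2.30.

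Constructs with 2 sgRNAs of the same gene were described without a test. With sgRNA 1 and sgRNA 2 of CARS2 together, growth was −1.98 ± 0.10 (SD, n = 4), lower than with either alone. The same combination gave −3.19 ± 0.55 in PARS2 and −2.49 ± 0.41 in LARS2, against −2.71 and −2.18 for the stronger sgRNA. AARS2 gave −1.85 ± 0.31, close to its sgRNA 2 alone (−1.94 ± 0.15). The IARS2 combination had 0 to 39 reads per library, too few for a value.

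The next question was how niraparib changed the abundance of synthetase knockdown cells relative to the reference arm. Means over the 4 cultures rose above 0 for AARS2, CARS2, LARS2 and PARS2, each past edgeR's test, and IARS2 did not pass. Of all genes, 44.2% were higher and 35.7% lower by the same rule, so a higher value is common in this library. The direction depends on how doublings are treated, as given after the values.

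PARS2 had the highest response, 0.49 and 0.52 in 2022 and 0.53 and 0.56 in 2023, a mean of 0.52 ± 0.03 (SD, n = 4; edgeR adjusted p = 4.5e-07), rank 522 of 543 from the lowest. CARS2 was at 0.34, 0.28, 0.35 and 0.35, a mean of 0.33 ± 0.03 (SD, n = 4; adjusted p = 2.9e-06). LARS2 was at 0.32, 0.28, 0.37 and 0.31, a mean of 0.32 ± 0.04 (SD, n = 4; adjusted p = 3.4e-06). AARS2 was at 0.34, 0.28, 0.27 and 0.31, a mean of 0.30 ± 0.03 (SD, n = 4; adjusted p = 4.6e-06). The last 3 overlapped, and all PARS2 cultures lay above all of theirs, by 0.19 to 0.22 on average. All culture values of these 4 genes exceeded the highest of the 55 control means, 0.05.

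IARS2 ranged from −0.04 to 0.22, with a mean of 0.05 ± 0.12 (SD, n = 4; edgeR adjusted p = 0.15). It was above 0 in the 2022 cultures (0.22 and 0.06) and slightly below in 2023 (−0.02 and −0.04). Its sgRNA 1 gave 0.02 ± 0.14 and its sgRNA 2, the stronger and rarer one, 0.29 ± 0.22 (SD; adjusted p = 0.013 over all sgRNAs). The test passed for the gene with median-of-ratios scaling (0.10, adjusted p = 0.0063), with sgRNA 2 alone (0.29, 0.015) and without 2022 replicate 2 (0.09, 0.029), and the mean of the 2023 screen alone was −0.03. In the other 4 genes both sgRNAs gave a positive response, between 0.26 and 0.56.

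No synthetase differed in response between the screens by edgeR's test (adjusted p from 0.24 to 0.81). The widest difference was that of IARS2, −0.17. Over all genes 0.368% were lower in 2023 and 0% higher by the same rule. Without 2022 replicate 2, 1 of the 5 passed.

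Among genes whose growth lay within 0.25 of each synthetase, the response of AARS2 exceeded that of 56 of 77 genes and that of CARS2 61 of 77. LARS2 exceeded 31 of 56 and PARS2 8 of 10, while IARS2 exceeded only 8 of 54. Growth and response share the reference libraries, so low growth and a high response are not independent measures. These counts are descriptions of rank among genes and carry no test.

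The authors' deposited phenotypes were divided by a constant for each culture, 7.19 to 8.04 for the reference arm and 4.98 to 5.4 for the niraparib arm, read here as doublings. When the change over T0 in the niraparib arm was multiplied by the ratio of these constants before the reference arm was subtracted, the values turned negative: −0.14 ± 0.15 for AARS2 (limma adjusted p = 0.13), −0.10 ± 0.11 for CARS2 (0.16) and −0.28 ± 0.19 for LARS2 (0.037). PARS2 came to −0.39 ± 0.24 (0.028) and IARS2 to −0.70 ± 0.37 (0.018; SD, n = 4 throughout). By this rule 58.7% of genes were lower and 8.1% higher, and the median over genes moved by −0.21. Of the synthetases 3 fell and none rose by this measure, whereas 4 rose unscaled.

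Relative to T0, growth in the niraparib arm stayed below the controls for all 5: −1.92 ± 0.17 in PARS2, −1.56 ± 0.22 in IARS2, −1.25 ± 0.15 in LARS2, −0.93 ± 0.12 in AARS2 and −0.90 ± 0.07 in CARS2 (SD, n = 4). All passed edgeR's test, as did 82.1% of genes in that direction and 5.52% in the other.

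Other genes of the same organelle gave comparable values. A list of 21 other mitochondrial genes was drawn up after the library's gene names had been read. The list is not complete. It leaves out LIG3 and DNA2, which also act in nuclear repair and whose responses fell. TRIAP1, with a growth of −0.27 and a response of 0.03, was not on it either. The counts that follow hold for the chosen genes only. Growth was lower in 21 of the 21, where 81% of all genes were lower (median −1.42, against −0.46 over all genes). The response was higher in 21 of the 21, where 44.2% of all genes were higher (median 0.31, against 0.01). Genes whose growth lay within 0.25 of a synthetase had median responses from 0.23 (AARS2 and CARS2) to 0.39 (PARS2). The list median lies within that range. These sets of like growth include genes of the list, so the comparison is not between separate genes. Whether the response of the list differs from that of other genes of like growth was not tested. After scaling to doublings, 12 of the 21 were lower and 4 higher, beside 58.7% and 8.1% of all genes, so the lower count is near the background. In mitochondrial translation and RNA processing, TUFM had a response of 0.21 ± 0.06 and PTCD1 one of 0.43 ± 0.05. The 6 genes of the respiratory chain and its assembly all rose, between 0.25 and 0.36. No gene of the lists for the mitochondrial ribosome and mitochondrial import was in the library.

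In mitochondrial DNA maintenance 4 of 6 genes rose in response and 2 fell, beside 44.2% and 35.7% of all genes. Those that rose included POLG, the replicative polymerase (0.31 ± 0.03). LIG3 (−0.96 ± 0.10) and DNA2 (−0.07 ± 0.003) fell. All 6 genes of serine and one-carbon metabolism rose, with SHMT2, the mitochondrial serine hydroxymethyltransferase, highest at 0.84 ± 0.29. DENR and MCTS1, translation re-initiation factors listed for the stress response, fell to −0.57 ± 0.12 and −0.40 ± 0.12 (SD, n = 4 in each case).

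The library also held 3 cytosolic synthetases. SARS, NARS and YARS, which charge serine, asparagine and tyrosine in the cytosol, had growth of −1.84 ± 0.15, −0.38 ± 0.02 and −0.39 ± 0.04 (SD, n = 4). Their responses were 0.15 ± 0.06, 0.04 ± 0.01 and 0.03 ± 0.01, all past edgeR's test. After scaling to doublings all 3 turned negative and passed limma's test (SARS −0.65, NARS −0.12 and YARS −0.15). The unscaled SARS response was −0.33 with its first sgRNA alone, where it did not pass (edgeR adjusted p = 0.62). It also did not pass without 2023 replicate 1 (0.14, edgeR adjusted p = 0.075) or 2023 replicate 2 (0.16, 0.055). SARS grew more slowly than every mitochondrial synthetase but PARS2 and had a lower response than all but IARS2; the difference between the families was not tested. Under TMM scaling NARS and YARS growth came to 0.07 and 0.06, so their direction depends on the scaling, whereas the 5 mitochondrial genes stayed between −0.77 and −1.99.

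That scaling sets the typical gene and not the controls at 0. It moved the median growth over genes by 0.45, and the calls went from 440 lower and 23 higher to 259 lower and 250 higher. With median-of-ratios scaling the response calls went from 194 lower and 240 higher to 157 lower and 302 higher, with the median moved by 0.04.

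The following comparison asked whether 2 synthetases lowered together changed growth more or less than expected. In all 10 pairs the observed growth in the reference arm was far less low than the sum of the single values. AARS2 with LARS2 reached −1.81 ± 0.16 (SD, n = 4), where the singles sum to −3.10 ± 0.33. CARS2 with LARS2 reached −1.87 ± 0.14 against −2.92, and AARS2 with CARS2 −1.66 ± 0.16 against −2.60. The pair LARS2 and PARS2 reached −2.62 ± 0.18 against −4.20. Each of these pairs lay slightly below the stronger single knockdown, which was −1.71 for LARS2, −1.39 for AARS2 and −2.49 for PARS2 by the same unweighted mean. So did CARS2 with PARS2 (−2.56). The remaining pairs lay above it: AARS2 with PARS2 (−2.37 against −2.49) and every pair with IARS2. Those were AARS2-IARS2 (−1.83), CARS2-IARS2 (−2.15) and IARS2-LARS2 (−2.17), each against −2.30, and IARS2-PARS2 (−2.42 against −2.49). Only constructs with a mean T0 count of 30 or more enter these means, and 61.4% of IARS2 constructs met this. CARS2-IARS2 held 3 of its 4 sgRNA pairs, so it and the single values do not weight the sgRNAs alike. The part of the missing constructs in these differences was not tested.

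The interaction score measures a pair against the library as a whole: for each sgRNA a quadratic curve is drawn through its partners, and the score is the distance from that curve, with 0 for a typical pair. On that scale 8 of the 10 pairs did not pass limma's test, where 2.34% of all gene pairs passed in either direction. AARS2-LARS2 scored 0.10 ± 0.09, AARS2-CARS2 0.07 ± 0.06, CARS2-LARS2 0.07 ± 0.08, AARS2-PARS2 0.06 ± 0.11, CARS2-PARS2 −0.02 ± 0.11 and LARS2-PARS2 −0.07 ± 0.11 (SD, n = 4). A pair that misses the threshold is not shown to be neutral.

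The 2 pairs that passed both held IARS2. AARS2-IARS2 scored 0.55, 0.61, 0.75 and 0.43 by culture, a mean of 0.58 ± 0.13 (SD, n = 4; limma adjusted p = 0.013). IARS2-LARS2 scored 0.48, 0.23, 0.40 and 0.40, a mean of 0.38 ± 0.10 (SD, n = 4; adjusted p = 0.027). IARS2-PARS2 was higher on average at 0.50 ± 0.39 but did not pass (adjusted p = 0.12). CARS2-IARS2, from 3 sgRNA pairs, scored 0.05 ± 0.04. These pairs rest on 81 to 781 reads per library over 8 constructs, against 343 to 4132 for the pairs without IARS2. With niraparib the AARS2-IARS2 score was 0.12 ± 0.36 and no mutual pair passed, where 5.13% of all pairs passed in either direction, nor did any differ between the arms (adjusted p of 0.12 or more).

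AARS2, CARS2, LARS2 and PARS2 were each scored with 542 partner genes and IARS2 with 537, the other synthetases included. In the reference arm AARS2 had 6 lower and 31 higher scores past limma's threshold, CARS2 10 and 4, IARS2 5 and 18, LARS2 10 and 28, and PARS2 6 and 22. The mutual pairs AARS2-IARS2 and IARS2-LARS2 are among these. Over all 147044 gene pairs 1.28% were lower and 1.06% higher. The share of higher partners was 5.72% in AARS2, 5.17% in LARS2, 4.06% in PARS2 and 3.35% in IARS2, above that background, and 0.738% in CARS2, below it. The median score of AARS2 was 0.04 and that of CARS2 −0.01. These calls need all 4 cultures: the 138 pairs called in the reference arm became 11 without 2022 replicate 1, 3 without 2022 replicate 2, 10 without 2023 replicate 1 and 9 without 2023 replicate 2.

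DNMT1, the maintenance DNA methyltransferase, had low scores with 4 of the 5 synthetases. The reference score was −0.58 ± 0.16 with PARS2, −0.54 ± 0.23 with CARS2, −0.46 ± 0.09 with AARS2 and −0.45 ± 0.13 with LARS2 (SD, n = 4), each past the threshold, and −0.31 ± 0.53 with IARS2, which did not pass. All culture values in the 4 genes that passed were below 0, between −0.20 and −0.76. With niraparib it passed with PARS2 (−0.62 ± 0.28), LARS2 (−0.56 ± 0.12) and AARS2 (−0.34 ± 0.10). DNMT1 knockdown alone lowered growth strongly (−2.89 ± 0.16), and its constructs with these 4 genes held on average 41.0 to 78.7 reference reads.

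SHMT2 was low with LARS2 (−0.57 ± 0.24), PARS2 (−0.51 ± 0.15), AARS2 (−0.32 ± 0.10) and CARS2 (−0.27 ± 0.07), all past the threshold in the reference arm. With IARS2 it stood at 0.45 ± 0.47, not past it. SFXN1, which carries serine into mitochondria, passed with CARS2 (−0.37 ± 0.10) and AARS2 (−0.31 ± 0.10) and stood at −0.28 ± 0.14 with PARS2 and −0.21 ± 0.18 with LARS2. The other 4 genes of the list for serine and one-carbon metabolism did not pass with any synthetase; MTHFD2, the mitochondrial methylenetetrahydrofolate dehydrogenase, lay between −0.12 and −0.01 with the 4 genes other than IARS2. With niraparib no SHMT2 score passed, and SFXN1 passed with CARS2 (−0.28 ± 0.11) and LARS2 (−0.25 ± 0.06).

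Further groups were low with several synthetases. PPP2R2A, a regulatory subunit of protein phosphatase 2A, passed with LARS2 (−0.51 ± 0.12), AARS2 (−0.41 ± 0.15) and CARS2 (−0.37). HSD17B12 and PTPLB, which act in the elongation of very long chain fatty acids, passed with CARS2 (−0.44 ± 0.19 and −0.48 ± 0.09) and LARS2 (−0.37 ± 0.15 and −0.35), and HSD17B12 also with PARS2 (−0.29). Both genes were below 0 with all 5. EWSR1, an RNA-binding protein, passed with PARS2 (−0.44 ± 0.09) and LARS2 (−0.29).

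Higher scores, where the pair grew better than the curve, included RBM8A and EIF4A3, subunits of the exon junction complex. RBM8A scored 0.69 ± 0.18 with PARS2, 0.56 ± 0.12 with LARS2 and 0.47 ± 0.13 with AARS2, and did not pass with CARS2 (0.34 ± 0.34) or IARS2 (0.72 ± 0.51). EIF4A3 scored 0.64 ± 0.26 with PARS2, 0.50 ± 0.16 with CARS2 and 0.43 ± 0.10 with AARS2. POLA1, the catalytic subunit of DNA polymerase alpha, scored 0.54 ± 0.08 with AARS2 and 0.51 ± 0.21 with LARS2, and RPA2, of replication protein A, 0.54 ± 0.08 with PARS2 and 0.45 ± 0.21 with LARS2.

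Further partners that passed with 3 synthetases included ATP6V0C, a subunit of the vacuolar proton pump (0.34 with AARS2, 0.49 with IARS2, 0.35 with LARS2), SNRPG, of the spliceosome, C12orf66, of a complex that restrains mTORC1, and YAE1D1. In all, 22 partners, IARS2 itself among them, were higher with 2 or more synthetases and 7 lower. Over all gene pairs 1.06% were higher and 1.28% lower. How often other sets of 5 genes share partners was not counted, so neither number is shown to be particular to the synthetases. All scores of a partner with the 5 genes come from the same libraries, so the counts do not stand for separate experiments.

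Further extremes of single genes in the reference arm were not compared between the synthetases. AARS2 was low with MAPKAP1, of mTOR complex 2 (−0.38 ± 0.16, sgRNA pairs from −1.06 to 0.10), and ZNF574 (−0.38 ± 0.10). CARS2 was low with RANBP3 (−0.42 ± 0.13) and higher with MTF2 (0.29 ± 0.06), CBL (0.25 ± 0.03) and RCC1 (0.50 ± 0.24, from 1 sgRNA pair, but −0.072 at a T0 minimum of 10). LARS2 was higher with NUP62, a nuclear pore protein (0.63 ± 0.32). PARS2 was low with NOL6 (−0.89 ± 0.38, on average 5.34 reads per construct) and higher with PLK1, a mitotic kinase (0.52 ± 0.17).

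IARS2 had its own extremes: lower with DAD1 (−0.68 ± 0.12), TRIAP1 (−0.64 ± 0.27), C7orf26 (−0.57 ± 0.18) and PRMT5 (−0.46 ± 0.20), and higher with RABGGTB (0.67 ± 0.20), CEP63 (0.63 ± 0.23) and SNRPG (0.58 ± 0.26). Its scores varied by a median SD of 0.36 over cultures, against 0.08 to 0.12 in the other 4 genes, and its named pairs held 12.6 to 57.1 reference reads per construct. With a T0 minimum of 10 reads, the scores with TRIAP1 and CEP63 changed sign (0.03 and −0.06), and with a minimum of 100 that with PRMT5 did (0.43).

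In the niraparib arm the calls were 8 lower and 54 higher in AARS2, 10 and 6 in CARS2, 9 and 26 in IARS2, 5 and 31 in LARS2, and 10 and 20 in PARS2. Over all pairs 2.63% were lower and 2.5% higher. The total of 179 pairs became 26 to 38 when any 1 of the 4 cultures was left out. POLA1, CLSPN and RPA2, of DNA replication, DTL, IMP4, RBM8A, SNRPG and YAE1D1 were higher with 3 synthetases each. For POLA1 these include IARS2 (0.69 ± 0.31, 15.2 reference reads per construct), a score that changed sign at a T0 minimum of 10. For RBM8A they include PARS2 (0.56 ± 0.21), a score that changed sign at a T0 minimum of 100. Sharing of partners among other sets of genes was not counted in this arm either. With LARS2, POLA1 scored 0.45 ± 0.10 and CLSPN, the checkpoint adaptor claspin, 0.45 ± 0.16.

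AARS2 was higher with POLR3A (0.42 ± 0.11) and ATP6V0C (0.40 ± 0.04) and lower with HSD17B12 (−0.29 ± 0.03), CAD (−0.29 ± 0.08) and MAPKAP1 (−0.28 ± 0.09). Its sgRNA pairs ran from −0.64 to 0.14 with CAD, at 14.3 reference reads per construct, and from −0.69 to 0.16 with MAPKAP1. CARS2 was lower with OPA1, of the mitochondrial inner membrane (−0.41 ± 0.18), PGK1, of glycolysis (−0.39 ± 0.19), RAD54L, of homologous recombination (−0.37 ± 0.07), and MAPKAP1 (−0.33 ± 0.13). It was higher with BUB3 (0.32 ± 0.08), YAE1D1 (0.32 ± 0.07), PSMA5 (0.27 ± 0.05) and FAU (0.25 ± 0.07, sgRNA pairs from −0.07 to 0.45).

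LARS2 was higher with POLR2B (0.44 ± 0.13) and SNRPG (0.38 ± 0.12), and lower with PPP2R2A (−0.29 ± 0.13), SFXN1 (−0.25 ± 0.06) and EMC2 (−0.24 ± 0.07). PARS2 was lower with MED23 (−0.38 ± 0.02), EWSR1 (−0.37 ± 0.12) and PGK1 (−0.34 ± 0.16), and higher with NUP62 (0.68 ± 0.15), RBM8A (0.56 ± 0.21, but −0.11 at a T0 minimum of 100), PLK1 (0.52 ± 0.23) and RCC1 (0.49 ± 0.22). IARS2 ran from SNAI1 (−0.86 ± 0.44) and RPA1 (−0.78 ± 0.25) to RPTOR (0.79 ± 0.36) and RAD54L (0.70 ± 0.18).

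Few pairs passed limma's test for a change of score with drug, and a pair that misses the threshold is not shown to be unchanged. The differential score, niraparib minus reference, passed for 8 of the pairs with a synthetase, where 0.468% of all pairs passed. NMNAT1, which makes nuclear NAD, rose with AARS2 by 0.40 ± 0.08 (0.33, 0.34, 0.45 and 0.49 by culture; limma adjusted p = 0.0496). RCC1 fell with CARS2, at −0.92 ± 0.25, from a single sgRNA pair with 22.4 reference reads per construct. The other 6 were partners of IARS2: PRPF39 (−0.84 ± 0.17), MECOM (−0.81 ± 0.17) and CEP63 (−0.61 ± 0.06) lower, and IMP4 (0.69 ± 0.16), MCM10 (0.51 ± 0.07) and ZNF574 (0.44 ± 0.10) higher. These 6 held 12.6 to 24.7 reference reads per construct. Their sgRNA pairs ran from −2.12 to 0.11 for MECOM, −2.06 to 0.13 for CEP63 and −0.06 to 2.52 for IMP4. For PRPF39, MCM10 and ZNF574 they kept 1 sign.

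LARS2 and PARS2 had no differential score past the adjusted threshold in limma, with 49 and 50 of 542 pairs at an unadjusted p under 0.05. Leaving out 1 culture gave 0 or 1 such pair in place of 8. With a T0 minimum of 10 the RCC1 score was 0.02. A fit with no replicate block, which treats the reference and niraparib scores of a culture as separate, called 9.

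Across partners, the score profiles of AARS2, LARS2 and PARS2 were closest to each other. Pearson's correlation of reference scores was 0.79 between AARS2 and LARS2 over 541 partners, and each was the other's closest of 542 genes. PARS2 followed, at 0.70 with LARS2 and 0.68 with AARS2, the 2 genes closest to it. CARS2 was closest to LARS2 (0.62) and AARS2 (0.61), but ranked only 14 for LARS2, 18 for AARS2 and 21 for PARS2, behind genes outside the family. The median correlation with all genes was 0.20 for LARS2, 0.21 for AARS2, 0.19 for PARS2 and 0.14 for CARS2. In the 2022 and 2023 cultures apart, AARS2 and LARS2 correlated at 0.72 and 0.66. These are correlations across partner genes, which share libraries and depth, and they carry no test.

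Other genes of high correlation were RABGGTB, of Rab prenylation (0.67 with AARS2, 0.66 with LARS2 and PARS2, 0.58 with CARS2), UROD, of haem synthesis (0.67 with LARS2, 0.66 with AARS2), and ATP6V0C (0.67 with AARS2). Mitochondrial genes were among them: COX11, of cytochrome oxidase assembly (0.66 with LARS2), ATP5J2, of ATP synthase, and GRSF1, of mitochondrial RNA granules (0.61 and 0.60 with CARS2), and FH, fumarate hydratase (0.65 with PARS2). HJURP, a centromeric histone chaperone, also stood at 0.66 with PARS2. The median over the 6 respiratory chain genes was 0.41 to 0.46 for these 4 synthetases.

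The profile of IARS2 resembled none of them closely. Its highest correlations were with RSL1D1 and FAU, of ribosome production (0.29 and 0.28), MTOR (0.26), EIF3D (0.26) and ETF1 (0.25), and the other synthetases lay at 0.10 to 0.18, ranks 62 to 186. Its median correlation with all genes was 0.06. IARS2 had the fewest reads of the 5 and the largest spread between cultures; their part in the low correlations was not tested.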

How the data were processed

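Sequencing reads of sgRNA pairs were counted in 12 libraries. Each file holds whole-number read counts per construct, deposited by the authors without normalisation; Bowtie2 2.3.4.1 is named in the submitters' processing notes, and the genome build is not given in the sources used here. The authors also deposited log2 phenotypes per construct, divided by a constant for each culture; only these constants were used, and their 2023 table lists 4 of the 5 genes.

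For single genes, counts over 220 constructs with a non-targeting partner were summed, scaled to 3025 constructs of 2 non-targeting sgRNAs, and tested with edgeR 4.0.16 (quasi-likelihood, culture as a block, Benjamini-Hochberg adjustment, threshold 0.05). Interaction scores left out constructs whose T0 counts averaged under 30, with a pseudocount of 1 and a quadratic curve per sgRNA with at least 100 partners, and were tested with limma 3.58.1 over 4 cultures and 147044 gene pairs. Scaled responses were tested with limma. Checked on simulated data, the single-gene test recovered 200 of 200 changed genes with 4 false calls among 398 unchanged, and the score test 196 of 200 with 41 among 146844. Simulated noise was independent between libraries, and the score simulation added none to T0, so these rates may not hold for the real libraries. Of the 55 real control sgRNAs, 3 passed edgeR's test in growth and 2 in response. R 4.3.3, DESeq2 1.42.0 and Python 3.11.15 were also used.

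Arms of the same culture are paired by replicate number, because the protocol says that each replicate was sampled at T0 and then divided between them. Over 598 features, replicate differences of the reference and niraparib arms correlated at 0.47 in 2022 and 0.21 in 2023. Those of T0 with either arm correlated at only −0.0012 to 0.11, so the values show little pairing of T0 with the endpoints. Cultures are replicates of 1 cell line. The single-gene edgeR fit let the arms differ between the screens, so its p-values for growth and response rest on the spread within a screen. The SDs printed beside them are over all cultures and also hold the difference between screens. The limma p-values of the interaction scores measure the spread between these cultures.

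The genes, the gene lists and the tests were chosen with earlier results of these data known. Named partners are the 4 lowest and 4 highest scores, per gene and score, among pairs past the threshold with 1 sign in all 4 cultures, and genes passing for several synthetases were added afterwards. Genes of like profile are the 5 highest correlations, and rank neighbours are 3 on each side. Alternatives covered scaling, DESeq2, count minimums of 10 and 100, a pseudocount of 10, a straight line, a screen term, single sgRNAs and positions, each screen alone, each culture left out, and no replicate block. Some partners that meet these rules are not reported here.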

Additional observations from a re-analysis of the deposited data

Results flagged for a closer look

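Growth of all 5 synthetases differed between the screens by edgeR's test of the difference: 2023 minus 2022 was −0.17 for AARS2, −0.15 for CARS2, −0.20 for IARS2, −0.29 for LARS2 and −0.33 for PARS2, with 2 libraries per arm in each screen. Sets of 4 culture values were also searched for 1 culture far from the others. They covered growth and response of the 5 genes and both arms' scores of the mutual pairs. Of 30 sets, 3 were flagged, where chance gives about 1 in 20, and all 3 were scores of mutual pairs. These were the niraparib score of AARS2-PARS2 in 2023 replicate 1 (−0.10), the reference score of CARS2-PARS2 in 2023 replicate 1 (−0.18) and the niraparib score of CARS2-PARS2 in 2023 replicate 2 (−0.47).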

How the results depend on the processing

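Growth of the 5 genes kept its direction and stayed past the threshold wherever it was tested. The response of AARS2, CARS2, LARS2 and PARS2 kept its direction except after scaling to doublings. Constructs of IARS2 had the fewest reads of the 5 genes, and the part of depth in its scores was not tested. With TMM scaling 259 genes were lower and 250 higher in growth, and LIG3 (0.21), MCTS1 (0.062), NARS (0.073) and YARS (0.059) turned. With median-of-ratios scaling the counts were 275 and 236, LIG3 (0.15) and NARS (0.010) turned, and the IARS2 response was 0.10. The 2022 screen alone gave 12 genes higher. The IARS2 response was −0.031 in 2023 alone and 0.29 with its second sgRNA, and that of SARS was −0.33 with its first. The T0 level of IARS2 was −2.04 over constructs of at least 30 reads.

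After scaling to doublings 319 genes were lower and 44 higher in response. The turned values were AARS2 −0.14, CARS2 −0.10, IARS2 −0.70, LARS2 −0.28, PARS2 −0.39, ATP5J2 −0.23, COQ2 −0.14, COX11 −0.32, FH −0.48, GRSF1 −0.26, MINOS1 −0.81, MTHFD1 −0.36, NARS −0.12, NDUFA8 −0.21, NDUFA9 −0.21, NDUFB2 −0.15, OPA1 −0.20, PSPH −0.19, PTCD1 −0.46, REXO2 −0.31, SARS −0.65, SDHC −0.12, SSBP1 −0.77, TUFM −0.44 and YARS −0.15. The cause was not tested.

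A pseudocount of 10 gave 8029, 12918 and 2455 pairs past the threshold for reference, niraparib and differential scores (304, 288 and 18 with a synthetase). A straight line gave 7086, 11448 and 458 (293 and 328 with a synthetase for reference and niraparib scores). A screen term gave 234 differential pairs. Differential pairs with a synthetase numbered 2 at a T0 minimum of 10, 3 at 100 and 2 without IARS2, an alternative chosen after seeing the data.

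Scores turned at a T0 minimum of 10 for CARS2-IARS2 (−0.039), CARS2-RCC1 (−0.072), CEP63-IARS2 (−0.063) and IARS2-TRIAP1 (0.032) in the reference arm, IARS2-POLA1 with niraparib (−0.22) and CARS2-RCC1 in the differential score (0.021). At 100 they turned for CARS2-IARS2 (−0.073) and IARS2-PRMT5 (0.43) in the reference arm, CARS2-IARS2 (−0.13), LARS2-PARS2 (0.022) and PARS2-RBM8A (−0.11) with niraparib, and AARS2-IARS2 (0.016) and CARS2-IARS2 (−0.053) in the differential score. AARS2-PARS2 with niraparib was −0.0045 at a pseudocount of 10. With a straight line CARS2-PARS2 was 0.014 in the reference arm, LARS2-PARS2 0.095 with niraparib and AARS2-PARS2 0.027 in the differential score.

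Leaving out 1 culture gave 13 to 38 genes higher in growth, 2 to 5 synthetases whose growth and 0 to 1 whose response differed between screens, and an IARS2 response of 0.013 to 0.093. Called pairs numbered 264 to 472 (reference), 1714 to 2348 (niraparib) and 43 to 65 (differential), and with a synthetase 3 to 11, 26 to 38 and 0 to 1. Of 88 named pairs past the threshold, 12 to 23 stayed past it and 0 turned. Scores of mutual pairs that turned ran from −0.040 to 0.035 for CARS2-PARS2 in the reference arm, from −0.0047 to 0.045 for AARS2-PARS2 and −0.042 to 0.069 for LARS2-PARS2 with niraparib, and, in the differential score, from −0.032 to 0.0097 for AARS2-CARS2, −0.010 to 0.065 for AARS2-LARS2 and −0.21 to 0.0018 for CARS2-PARS2. Fewer cultures enter these tests.

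Without the replicate block 436 genes were lower and 29 higher in growth, 196 lower and 242 higher in response, and 1001 pairs, 9 with a synthetase, passed in the differential score.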
